A study of Mus musculus with 12 samples.

Results

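The solute carriers (Slc genes) that were expressed in mouse colonic epithelial cells were examined in animals with and without epithelial Tfeb. Members were chosen by their symbol and by their own FPKM, which is the number of sequenced fragments per kilobase of transcript, scaled to the size of the library. A gene whose symbol has the solute carrier form entered if its FPKM was at least 1 in any of the 6 columns of values. Of 375 such symbols among 47632 genes, 172 were chosen. The other 203 stayed under 1 FPKM in every column, and 126 of them were listed at 0 in all 6 columns. Slc25a42 at 1.008, Slc30a10 at 1.065 and Slc7a5 at 1.070 FPKM lay just inside the threshold, and Slc10a2 at 0.9548, Slc25a14 at 0.9221 and Slc26a1 at 0.9220 FPKM just outside it. The symbol form also took in 6 rows that are not carriers themselves, namely Slc9a3r1, Slc9a3r2, Slc4a1ap and Slc7a6os, which are other protein-coding genes, and the pseudogenes Slc25a5-ps and Slc39a1-ps.

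Solute carriers are membrane proteins that move ions, nutrients and metabolites by exchange, by cotransport or down a gradient. In the colon, surface epithelial cells take up sodium and chloride through paired sodium-proton and chloride-bicarbonate exchange, and take up the short-chain fatty acids that bacteria make from fibre. Most members of the Slc25 family instead sit in the inner mitochondrial membrane and connect the matrix with the cytosol. A further set works in the lysosome, the organelle whose genes the transcription factor TFEB is known to regulate.

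Cells came from C57/BL6 mice. Tfeb flox/flox animals, the controls, carry the floxed Tfeb allele without Cre, and Tfeb ΔIEC animals carry the same floxed allele with Cre under the villin promoter, which is active in the epithelium of small and large intestine. Colonic epithelial cells were detached with EDTA on Day 0 (untreated), on Day 4 of dextran sulfate sodium (DSS) in the drinking water, given as 2.5% in the labels and at a slightly lower concentration in the methods, and on Day 11, after return to plain water. Each of the 6 groups had 2 animals. They were 10 and 12 weeks old on Day 0, 12 weeks on Day 4 and 10 weeks on Day 11 in both genotypes, so day and age cannot be told apart. The deposited tables give 1 FPKM per genotype and day, made by the authors from both animals, so the spread between animals cannot be read from them, and every value here is the authors' pooled value. The tables also hold the results of the authors' own test, which were not used here, and no test of genotype is given. Each day's table was scaled alone, so levels on different days are set side by side only. The tables give no fragment counts and the depth behind each value is unknown.

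Tfeb itself was listed at 0.901, 1.08 and 1.18 FPKM in Tfeb flox/flox on Days 0, 4 and 11, and at 0.185 FPKM on Day 0 and 0 on Days 4 and 11 in Tfeb ΔIEC. All 6 epithelial markers, Epcam and Vil1 among them, and all 7 colonocyte markers were above 0 in all 6 columns, with colonocyte sums of 27834 to 60045 FPKM. Several differed between genotypes on Day 4. Krt20 was at 101 and 931 FPKM, Vil1 at 30.6 and 224 FPKM and Cdh1 at 24.5 and 164 FPKM, log2 differences of 3.19, 2.83 and 2.70, while Guca2a was lower in Tfeb ΔIEC (-1.85). Of the colonocyte markers, which include the member Slc26a3, 1 of 7 was above 0 on the log2 scale on Day 0 and 5 of 7 on Day 4, with medians of -0.73 and 0.84. The epithelial medians were 0.28 and 0.41, with 4 of 6 above 0 on both days. The stromal markers summed to between 2.37 and 4.92 FPKM, and Myh11 and Des, markers of muscle, were listed at 0 throughout. The 8 immune markers summed to between 19.8 and 36.2 FPKM in 4 groups but to 169 and 179 FPKM in Tfeb ΔIEC on Days 4 and 11. Of that, Cd74 made up 165 and 175 FPKM. The neutrophil gene S100a9 was listed at 0 in every column. S100a8, also a neutrophil gene, was listed at 1.15 and 1.14 FPKM in Tfeb ΔIEC on Days 4 and 11, and at 0 elsewhere. The 6 goblet cell markers summed to 115073 and 119813 FPKM in Tfeb flox/flox on Days 4 and 11 against 15408 and 14852 FPKM in Tfeb ΔIEC. Spink4 and Tff3 made up most of these sums, and 2 of the 6 had the opposite sign on Day 4, Muc2 at 645 and 1894 FPKM and Clca1 at 432 and 1298 FPKM in the controls and Tfeb ΔIEC. The part of these marker differences in the solute carrier values was not tested, and in bulk samples fewer cells of a type and less RNA per cell cannot be told apart. The tables of Days 4 and 11 were near-identical in part, although the labels give each day its own animals. Of members above 0 on both days, 11 of 157 (7.01%) in Tfeb flox/flox and 6 of 170 (3.53%) in Tfeb ΔIEC had an identical FPKM, and 68.2% and 77.6% were within 10%. For Days 0 and 4 no member was identical, and 5.19% and 11.8% were within 10%. Day 11 is therefore given beside Day 4 as a second listing, not as support for it.

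The FPKM of the members summed to 3981 in the controls and 4420 in Tfeb ΔIEC on Day 0, to 3089 and 4636 on Day 4, and to 3106 and 4563 on Day 11. They held 0.408% of all FPKM in the controls and 0.454% in Tfeb ΔIEC on Day 0, 0.211% and 0.565% on Day 4, and 0.211% and 0.552% on Day 11. The sums over all genes that these shares divide by were themselves unequal, at 1464717 and 820344 FPKM on Day 4 against 975316 and 973878 FPKM on Day 0. The number of members at 10 FPKM or more was 36 and 46 on Day 0, 25 and 45 on Day 4, and 23 and 44 on Day 11. A total of 88 members reached 1 FPKM in all 6 columns, and 17 did so in 1 column only, 7 of them in Tfeb flox/flox on Day 0, 9 in Tfeb ΔIEC on Day 0 and 1 in Tfeb flox/flox on Day 4. The most abundant carriers in every column were the mitochondrial Slc25a5 and Slc25a3. Next in Tfeb flox/flox on Day 0 came the sugar-phosphate exchanger Slc37a2 at 207 FPKM, and in Tfeb ΔIEC on Day 4 the anion exchangers Slc26a3 at 271 and Slc26a2 at 266 FPKM.

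Differences between genotypes are given as log2((Tfeb ΔIEC + 1) / (Tfeb flox/flox + 1)) for genes at 1 FPKM or more in either genotype of that day, which understates the fold of genes with low values. On Day 0, 29 of 159 members (18.2%) were at least 2-fold higher in Tfeb ΔIEC, beside 13.5% of all 9993 genes, and 5 (3.14%) were at least 2-fold lower, beside 16.1% of all genes. On Day 4, 57 of 149 members (38.3%) were at least 2-fold higher, beside 25.6% of all 9371 genes, and 12 (8.05%) were at least 2-fold lower, beside 26.1%. On Day 11, 57 of 148 members (38.5%) were higher, beside 26.1% of all 9365 genes, and 12 (8.11%) were lower, beside 25.7%. At a 4-fold threshold on Day 4, 21 members (14.1%) were higher and 2 (1.34%) were lower, beside 7.36% and 10.3% of all genes. The members had a median log2 difference of 0.37 on Day 0, of 0.62 on Day 4 and of 0.61 on Day 11, beside 0.06, 0.06 and 0.08 for all genes. On Day 4 the middle 50% of members, from the first to the third quartile, ran from -0.17 to 1.39. Among members past the fold, 7 on Day 4 were higher against a Tfeb flox/flox value listed at 0, and 1, Slc16a11, was lower with Tfeb ΔIEC listed at 0.

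These counts move with transcript length and with scaling. The members are longer than other genes, with a median of 2764 nt against 1910 nt, and on Day 4 longer genes had higher values in Tfeb ΔIEC. Subtracting the running median of the log2 difference over transcript length from each gene took the members' median on Day 4 from 0.62 to 0.16 and left 33 members (22.1%) at least 2-fold higher and 18 (12.1%) lower, beside 20.2% and 20.4% of all genes. On Day 0 it left 20 (12.6%) higher and 17 (10.7%) lower, beside 11.4% and 11.3%. The share of higher members was thus near that of all genes on both days once the trend was taken out, and on Day 0 the share of lower members was too. Dividing each column by its sum instead raised the Day 4 differences, the columns summing to 1464717 FPKM in the controls and 820344 FPKM in Tfeb ΔIEC. The members' median was then 1.15 beside 0.75 for all genes. The counts of the substrate groups that follow stand beside the shares of all genes given for Day 0 (13.5% higher, 16.1% lower) and Day 4 (25.6% and 26.1%).

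**Figure D1:**
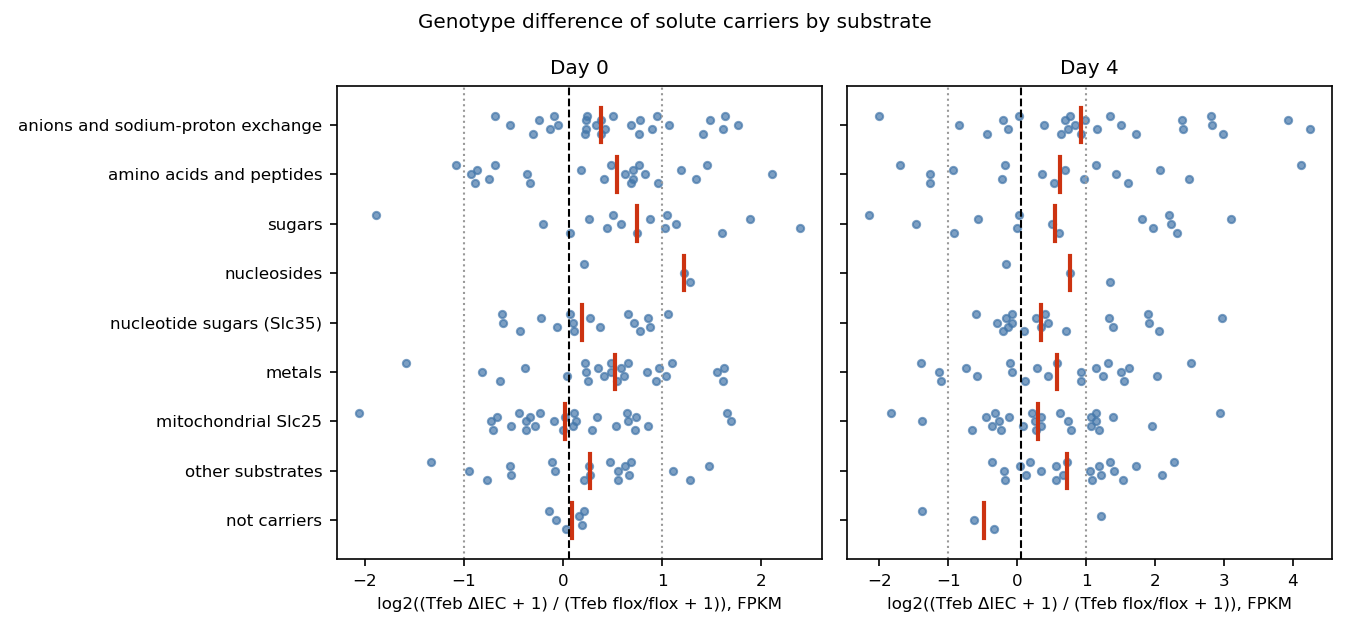
Log2 difference between genotypes (horizontal axis, log2 of the ratio of FPKM + 1) for members at 1 FPKM or more on Day 0 (left) and Day 4 (right), by substrate group. Each point is 1 gene, the red bar is the group's median, the dashed line is the median of all genes (0.06 on both days) and the dotted lines mark a fold of 2. On Day 4 the median of the anion group is 0.92 and that of the mitochondrial Slc25 group 0.30, and the points reach 4.25 in the former and 2.94 in the latter.

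Carriers of anions and of sodium-proton exchange had a Day 4 median of 0.92 over 25 members. It was 0.48 after subtraction of the length trend and 2.41 over members at 5 FPKM or more. The same filter also raised the Day 4 medians of other groups. They became 1.97 for sugars, 1.21 for metals, 1.11 for other substrates and 0.97 for amino acids and peptides. It gave 0.62 for Slc25 and 0.40 for Slc35, and the nucleoside group stayed at 0.76. Of the 25, 11 were at least 2-fold higher in Tfeb ΔIEC on Day 4 and 1 was lower, and on Day 0 6 of 27 were higher and none was lower. Slc26a3, the chloride-bicarbonate exchanger DRA that is lost in congenital chloride diarrhoea, was listed in Tfeb flox/flox at 85.8, 33.3 and 33.4 FPKM on Days 0, 4 and 11, and in Tfeb ΔIEC at 112, 271 and 271 FPKM. The genotypes were close on Day 0, with a log2 difference of 0.38, and lay 2.99 apart on Day 4, when Slc26a3 was the 252nd most abundant gene in Tfeb ΔIEC and the 1299th in Tfeb flox/flox. This gene, ENSMUSG00000001225.12, lies on chromosome 12 from 31390871 to 31473917 on the plus strand of mm10. Slc26a2, a sulfate transporter, was listed at 54.9, 13.0 and 12.3 FPKM in the controls and at 189, 266 and 262 FPKM in Tfeb ΔIEC. Its log2 difference was 1.77 on Day 0 and 4.25 on Day 4, the highest of all members on Day 4.

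The uptake of short-chain fatty acids is shared by the monocarboxylate carrier Slc16a1 (MCT1) and the sodium-coupled Slc5a8 (SMCT1). Slc16a1 was listed at 7.85, 1.27 and 1.05 FPKM in the controls and at 26.5, 33.6 and 31.4 FPKM in Tfeb ΔIEC, with log2 differences of 1.64 on Day 0 and 3.93 on Day 4. Slc5a8 was listed at 7.92, 4.86 and 4.41 FPKM in the controls and at 26.5, 29.6 and 27.2 FPKM in Tfeb ΔIEC, with log2 differences of 1.62 and 2.39. Both were at least 2-fold higher in Tfeb ΔIEC in each of the 3 tables. Slc16a1, ENSMUSG00000032902.1, lies on chromosome 3 from 104638668 to 104658462 on the plus strand. Bsg, which encodes basigin, the partner that brings monocarboxylate carriers to the cell surface, was abundant, at 1179 and 1162 FPKM on Day 0 and 793 and 1240 FPKM on Day 4. Its log2 differences were -0.02 and 0.64, and the latter was 1.48 after division by the column sums.

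Among the sodium-proton exchangers at 1 FPKM or more on Day 0, Slc9a2 (NHE2) had the highest Day 4 difference. It was listed at 5.18, 2.02 and 2.27 FPKM in the controls and at 10.5, 20.5 and 23.1 FPKM in Tfeb ΔIEC, a log2 difference of 0.90 on Day 0 and 2.83 on Day 4. Slc9a3 (NHE3), another exchanger of the apical membrane, was low in all columns, at 2.16, 1.40 and 1.42 FPKM in the controls and 1.68, 3.10 and 3.06 FPKM in Tfeb ΔIEC. Its log2 differences of -0.24 and 0.77 stayed within 2-fold. Slc9a3r1 (NHERF1), the scaffold that holds apical transporters and is no carrier, was listed at 30.6 and 72.4 FPKM on Day 4, a log2 difference of 1.22, and its relative Slc9a3r2 at 3.30 and 0.649 FPKM, a log2 difference of -1.38. Neither stayed past 2-fold under every scaling, with Slc9a3r1 at 0.75 after subtraction of the length trend and Slc9a3r2 at -0.86 after division by the column sums.

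Slc13a2, a sodium-coupled carrier of citrate and succinate, was close between genotypes on Day 0, at 17.9 and 16.3 FPKM, but on Day 4 it was listed at 3.41 FPKM in the controls and 30.2 FPKM in Tfeb ΔIEC, a log2 difference of 2.82. Slc4a7, a sodium-bicarbonate cotransporter, was at 2.01 and 6.70 FPKM on Day 4 (1.35 on the log2 scale). The chloride-bicarbonate exchanger Slc4a2 and the phosphate carrier Slc20a1 were within 2-fold on Day 4, with log2 differences of 0.84 and 0.92. Slc12a2 (NKCC1), which loads chloride for secretion across the basolateral membrane, was at 4.90 and 9.16 FPKM on Day 0 and at 0.814 and 2.02 FPKM on Day 4, log2 differences of 0.78 and 0.73. Over the whole list of 18 carriers of colonic salt and short-chain fatty acid absorption, which also holds the amino acid carrier Slc6a14, 8 of the 16 at 1 FPKM or more were at least 2-fold higher on Day 4 and none was lower. The median log2 difference of the list was 1.17 on Day 4 and 0.78 on Day 0. Slc26a6 and Slc16a3, the remaining list genes, stayed under 1 FPKM.

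**Figure D2:**
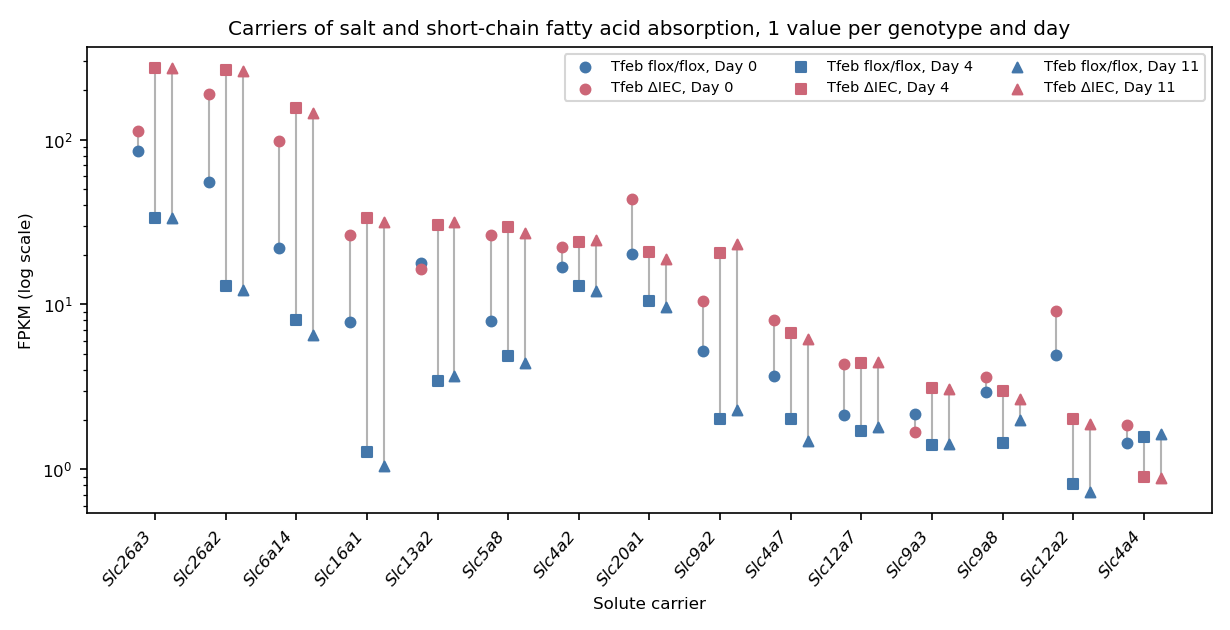
FPKM (vertical axis, log scale) of 15 list genes of colonic salt and short-chain fatty acid absorption that reached 1 FPKM, in Tfeb flox/flox (blue) and Tfeb ΔIEC (red) on Day 0 (circles), Day 4 (squares) and Day 11 (triangles), with a grey line joining the genotypes of a day. Each point is 1 pooled value from 2 animals without an error. Slc26a2 spans 13.0 to 266 FPKM on Day 4, and Slc4a4 is the only gene drawn whose Day 4 value is lower in Tfeb ΔIEC.

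Amino acid and peptide carriers lay on both sides. On Day 4, 6 of 16 were at least 2-fold higher and 3 were lower in Tfeb ΔIEC, with a median log2 difference of 0.62 that became 0.10 after subtraction of the length trend. Slc6a14, an apical carrier of neutral and cationic amino acids that is driven by sodium and chloride, was listed at 21.9, 8.0 and 6.52 FPKM in the controls and 98.0, 155 and 144 FPKM in Tfeb ΔIEC. Its log2 difference of 2.11 on Day 0 compares with 4.12 on Day 4 and 4.27 on Day 11, and the gene, ENSMUSG00000031089.7, lies on chromosome X from 21714896 to 21742355 on the plus strand. Slc6a6, the taurine carrier, had the opposite sign on the 2 days, with 16.4 and 9.77 FPKM on Day 0 (-0.69) and 2.49 and 18.7 FPKM on Day 4 (2.50). The glutamine carrier Slc1a5 was at 9.09 and 22.1 FPKM on Day 0 and 7.98 and 16.6 FPKM on Day 4, log2 differences of 1.19 and 0.97.

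The lower amino acid carriers on Day 4 had low values in both genotypes. Slc7a1, a carrier of cationic amino acids, was listed at 2.39 and 0.413 FPKM (-1.26), and Slc36a1, a proton-coupled carrier of small amino acids in the lysosomal membrane, at 3.38 and 0.350 FPKM (-1.70). After division by the column sums Slc7a1 was within 2-fold, at -0.81. The glycine carrier Slc6a9 was the third, named here for completeness after its values were seen, at 2.16 and 0.319 FPKM, and 38.8% of its exon length overlaps the exons of Ccdc24, so that fragments could be assigned to either gene. Slc3a2, the heavy chain that several light chains need at the membrane, was lower in each table, within 2-fold at 32.4 and 17.3 FPKM on Day 0 (-0.87) and 26.7 and 13.5 FPKM on Day 4 (-0.93, or -0.14 after division by the column sums), and past it at 25.5 and 9.89 FPKM on Day 11 (-1.29).

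Sugar carriers also lay on both sides, with the lowest Day 4 difference of all members among them. Slc37a2, an exchanger of glucose 6-phosphate and phosphate in the endoplasmic reticulum, was listed at 207, 11.3 and 11.3 FPKM in the controls and at 281, 106 and 102 FPKM in Tfeb ΔIEC, log2 differences of 0.44 on Day 0 and 3.11 on Day 4. The genotypes were thus within 2-fold on Day 0 and past it in both later tables. Its relative Slc37a3 was at 1.74 and 13.3 FPKM on Day 0 and 0.305 and 5.51 FPKM on Day 4, and with 2.39 had the highest log2 difference of any member on Day 0. The glucose transporter Slc2a1 (GLUT1) was at 3.03 and 7.89 FPKM on Day 0 and 2.93 and 17.2 FPKM on Day 4, log2 differences of 1.14 and 2.21. Slc5a1 (SGLT1), the sodium-coupled glucose carrier known from the small intestine, was at 5.48 and 18.7 FPKM on Day 0 and 2.76 and 13.8 FPKM on Day 4, log2 differences of 1.61 and 1.97.

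In the other direction, Slc2a10 (GLUT10) was listed at 5.23, 7.09 and 5.43 FPKM in the controls and at 0.683, 0.824 and 0.834 FPKM in Tfeb ΔIEC. Its log2 differences of -1.89 and -2.15 made it the only sugar carrier at least 2-fold lower on Days 0 and 4 alike. Slc2a13, a proton-coupled inositol carrier, was at 2.17 and 0.148 FPKM on Day 4 (-1.47) and under 1 FPKM in both genotypes on Day 0. Slc50a1, of the SWEET family, was at 29.6 and 15.1 FPKM on Day 4 (-0.92). In total 6 of 14 sugar carriers were at least 2-fold higher and 2 lower on Day 4, with a median of 0.55 that became 0.01 after subtraction of the length trend. On Day 0 the corresponding counts were 6 higher and 1 lower of 15, with a median of 0.75.

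The list of 10 carriers of small-intestinal absorption had low values apart from Slc5a1. On Day 4 only Slc5a1 and the fructose carrier Slc2a5 reached 1 FPKM, the latter at 1.30 and 1.33 FPKM. Slc2a2 (GLUT2) was listed at 0 in all 6 columns, and the peptide carrier Slc15a1 (PEPT1) was at 0.351 to 1.12 FPKM.

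Nucleoside and nucleotide carriers were few. Slc29a1 (ENT1), the equilibrative carrier of the plasma membrane, was within 2-fold on Day 0 at 6.43 and 7.61 FPKM and on Day 4 at 1.98 and 1.65 FPKM. Slc29a3 (ENT3), its relative in lysosomes, was at 0.431 and 2.48 FPKM on Day 0 and was listed at 0 in the controls and 1.55 FPKM in Tfeb ΔIEC on Day 4. Its log2 difference of 1.35 that day became 0.74 after subtraction of the length trend. Slc17a9, a vesicular nucleotide carrier, was at 9.76 and 24 FPKM on Day 0 and 14.2 and 24.7 FPKM on Day 4, log2 differences of 1.22 and 0.76.

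The Slc35 family was taken by symbol, and only part of it is known to bring nucleotide sugars into the Golgi and endoplasmic reticulum for glycosylation. On Day 4, 6 of 19 members were at least 2-fold higher and none lower in Tfeb ΔIEC, namely Slc35a1, Slc35b2, Slc35b3, Slc35c1, Slc35f2 and Slc35f5. On Day 0, 1 of 16 was higher and none lower. Beside 25.6% and 13.5% of all genes, the higher members were near that share on Day 4 and below it on Day 0. The medians of 0.34 on Day 4 and 0.19 on Day 0 became 0.09 and -0.01 after subtraction of the length trend. Slc35a1, the carrier of CMP-sialic acid, was at 51.8 and 67.1 FPKM on Day 0 and 14.5 and 57.6 FPKM on Day 4 (1.92). Slc35c1, the carrier of GDP-fucose, was at 10.6 and 47.2 FPKM on Day 4 (2.06). Slc35f5 had the largest difference of the family, at 11.9 and 21.2 FPKM on Day 0 (0.78) and 2.27 and 24.7 FPKM on Day 4 (2.97). By contrast Slc35b1 and Slc35a3 were close on Day 4, with 24.5 and 26.4 FPKM and with 6.56 and 6.23 FPKM.

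Metal carriers had a Day 4 median of 0.58 over 21 members, with 8 at least 2-fold higher and 3 lower in Tfeb ΔIEC, and the median became 0.32 after subtraction of the length trend. Slc39a4 (ZIP4), the apical zinc importer that is mutated in acrodermatitis enteropathica, was listed at 60.8, 51.3 and 52.5 FPKM in the controls and at 46.6, 152 and 154 FPKM in Tfeb ΔIEC. Its log2 difference was -0.38 on Day 0 and 1.55 on Day 4, so that the order of the genotypes was not the same on the 2 days. The latter became 0.94, within 2-fold, after subtraction of the length trend. Slc39a7, a zinc carrier of the endoplasmic reticulum and Golgi, was at 7.46 and 25 FPKM on Day 4 (1.62), and Slc39a11 at 5.65 and 26.1 FPKM (2.03). Slc40a1 (ferroportin), the iron exporter, was singled out after its values were seen. It was at 8.79 and 13.3 FPKM on Day 0 (0.55) and 1.34 and 12.4 FPKM on Day 4 (2.52), while the iron importer Slc11a2 (DMT1), also chosen afterwards, was at 1.11 and 2.97 FPKM on Day 4 (0.92).

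The 3 metal carriers lower on Day 4 were all zinc carriers of the Slc39 family. Slc39a14 (ZIP14) was at 2.51 and 0.634 FPKM (-1.10), and Slc39a3 and Slc39a6, named after their values were seen, were at 7.81 and 3.02 FPKM (-1.13) and at 1.87 and 0.0926 FPKM (-1.39). After division by the column sums, Slc39a14 at -0.61 and Slc39a3 at -0.44 were within 2-fold on Day 4. On Day 0, Slc39a14 and Slc39a3 had been higher in Tfeb ΔIEC, at 0.895 and 4.85 FPKM (1.63) and at 1.89 and 7.47 FPKM (1.55). Slc8b1, a sodium-calcium exchanger of mitochondria, was the lower metal carrier on Day 0, at 14 and 4.04 FPKM (-1.58), and was within 2-fold on Day 4 at 3.48 and 1.66 FPKM (-0.75).

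The Slc25 carriers were grouped as mitochondrial by their symbol, not by the known location of each member. They had median log2 differences of 0.02 on Day 0 and 0.30 on Day 4. These turned to -0.18 and -0.17 once the length trend was subtracted. Slc25a5 (ANT2), which exchanges ADP and ATP, was listed at 1148, 1281 and 1332 FPKM in the controls and at 948, 998 and 1034 FPKM in Tfeb ΔIEC. Its log2 difference was -0.28 on Day 0 and -0.36 on Day 4, and the latter became 0.48 after division by the column sums. Its pseudogene Slc25a5-ps was listed at 10.7 FPKM in Tfeb ΔIEC and 13.7 FPKM in Tfeb flox/flox on Day 4, and since both share sequence the split of fragments between them is uncertain. Slc25a3, the phosphate carrier, was at 1147 and 1240 FPKM on Day 0 and 837 and 1066 FPKM on Day 4, log2 differences of 0.11 and 0.35. Slc25a39, which takes glutathione into mitochondria, and Slc25a1, the citrate carrier, were within 2-fold on both days, at 94.9 and 101 FPKM and at 80.2 and 73.5 FPKM on Day 4.

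Of 26 Slc25 members, 8 were at least 2-fold higher on Day 4, a share near the 25.6% of all genes, and 2 were lower, beside 26.1%. Slc25a24, an ATP-magnesium and phosphate carrier that responds to calcium, was the highest of them and was picked out after its values were seen, at 8.03 and 27.5 FPKM on Day 0 (1.66) and 6.42 and 55.9 FPKM on Day 4 (2.94). Slc25a20, the carnitine-acylcarnitine carrier of fatty acid oxidation, also picked out afterwards, was at 18.4 and 20.3 FPKM on Day 0 and 12.1 and 49.9 FPKM on Day 4 (1.96). The glutamate carrier Slc25a22 was among the lower members, at 23.9 and 4.95 FPKM on Day 0 (-2.06, the lowest of all members that day) and 9.26 and 2.95 FPKM on Day 4 (-1.38). After division by the column sums its Day 4 difference was -0.67.

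Carriers of other substrates had 10 of 21 members at least 2-fold higher and none lower on Day 4, with a median of 0.72 beside 0.27 on Day 0. These became 0.30 and 0.04 after subtraction of the length trend. Slc44a4, a choline-like transporter that carries thiamine pyrophosphate in the colon, was listed at 92.7, 47.0 and 49.5 FPKM in the controls and at 111, 232 and 238 FPKM in Tfeb ΔIEC, log2 differences of 0.26 on Day 0 and 2.28 on Day 4. Its relative Slc44a3 was at 5.32 and 19.8 FPKM on Day 4 (1.72). Slc22a18 was within 2-fold on Day 4, at 44.6 and 34.3 FPKM (-0.37, or 0.45 after division by the column sums).

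Genes of ion and water transport outside the Slc families, the partners of these carriers, gave a mixed picture. Of 18 such genes at 1 FPKM or more on Day 4, 8 were at least 2-fold higher in Tfeb ΔIEC and 2 were lower, beside 25.6% and 26.1% of all genes, with a median of 0.54. The 8 include the scaffold gene Slc9a3r1, which entered the members by its symbol and is counted among them as well. Car2, a cytosolic carbonic anhydrase that supplies bicarbonate and protons for exchange, was at 580 and 1413 FPKM (1.28), while Car1 was at 24745 and 26614 FPKM (0.11). The water channel Aqp8 was lower on Day 0, at 198 and 30.1 FPKM (-2.67), and higher on Day 4, at 25.3 and 69.3 FPKM (1.42). Fxyd3, a regulator of the sodium pump, was at 192 and 40.6 FPKM (-2.21), and Scnn1a, the α subunit of the epithelial sodium channel, at 4.19 and 1.39 FPKM (-1.12). Cftr, the chloride channel, was at 0.169 and 1.44 FPKM (1.06). Atp1b3, a β subunit of the sodium pump, was at 0.636 and 7.25 FPKM (2.33). Some of these differences came within 2-fold under another scaling. Scnn1a was at -0.52 after division by the column sums, and Cftr at 0.51 and Car2 at 0.99 after subtraction of the length trend. The same subtraction took Kcnq1, a potassium channel, from 1.13 to 0.55 and Atp12a, a proton-potassium pump, from 1.03 to 0.35.

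Day 0 and Day 4, which come from separate tables, overlapped in part. Of the members at least 2-fold higher on Day 0, 15 of 29 (51.7%) were also among the 57 higher on Day 4, of which they are 26.3%. Over all genes 437 were higher on both days, 32.3% of those higher on Day 0 and 18.2% of those higher on Day 4. Of the lower members, 2 were past the fold on both days, namely Slc25a22 and Slc2a10 (2 of 5 and 2 of 12, beside 47.9% and 31.6% over all genes). Across the 136 members at 1 FPKM or more on both days the log2 differences had a Spearman correlation of 0.38, beside 0.47 across 8263 genes. This is over genes of the same pooled libraries and is given as a description. Days 4 and 11 shared 56 higher and 10 lower members, which given the near-identical tables adds nothing independent.

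**Figure D3:**
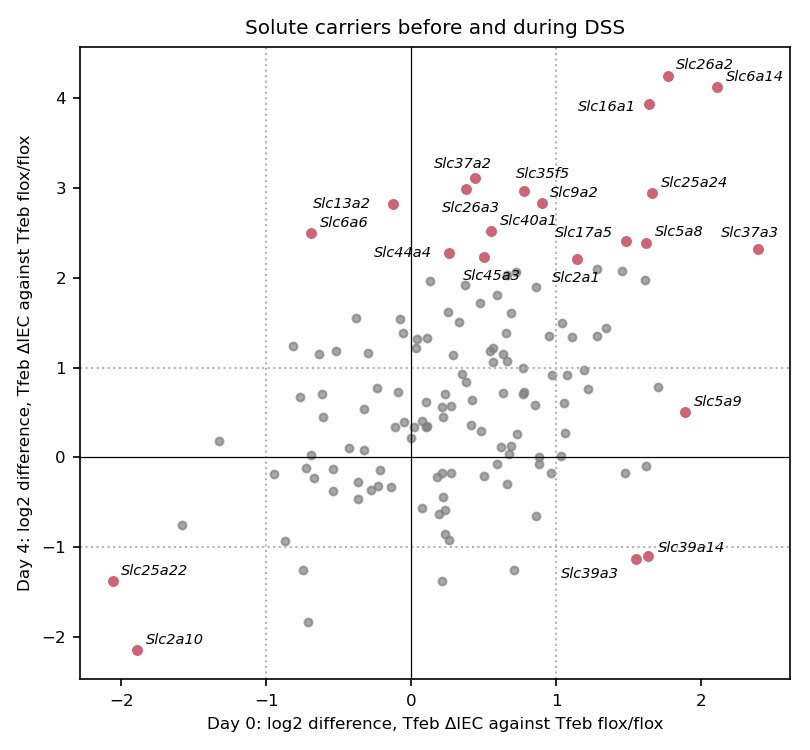
Log2 difference between genotypes on Day 0 (horizontal axis) against Day 4 (vertical axis) for the 136 members at 1 FPKM or more on both days. Each point is 1 gene, dotted lines mark a fold of 2 and red points are named. Slc26a2, Slc6a14 and Slc16a1 sit at the upper right (4.25, 4.12 and 3.93 on Day 4), Slc2a10 and Slc25a22 at the lower left, and Slc39a3 and Slc39a14 are higher on Day 0 and lower on Day 4.

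The carriers followed transcript length about as closely as other genes of their length range. The Spearman correlation of median transcript length with the Day 4 log2 difference was 0.19 over 149 members, 0.20 over the 7189 genes within the members' length range and 0.37 over 9271 genes, which include shorter ones. Among the 50 members of 865 to 2347 nt the median difference was 0.15, beside 0.05 for all genes in that range, and 15 members (30.0%) were at least 2-fold higher beside 22.6%. Among the 49 of 2364 to 3434 nt the median was 1.06 beside 0.66, and 25 (51.0%) were higher beside 37.4%. Among the 50 of 3466 to 9020 nt it was 0.70 beside 0.51, and 17 (34.0%) were higher beside 31.1%. The members with the largest differences stayed far from the trend after its subtraction on Day 4, with 3.77 for Slc26a2, 3.52 for Slc6a14, 3.39 for Slc16a1, 2.60 for Slc37a2 and 2.28 for Slc26a3. Whether length or the library preparation contributed to the members' values was not tested.

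**Figure D4:**
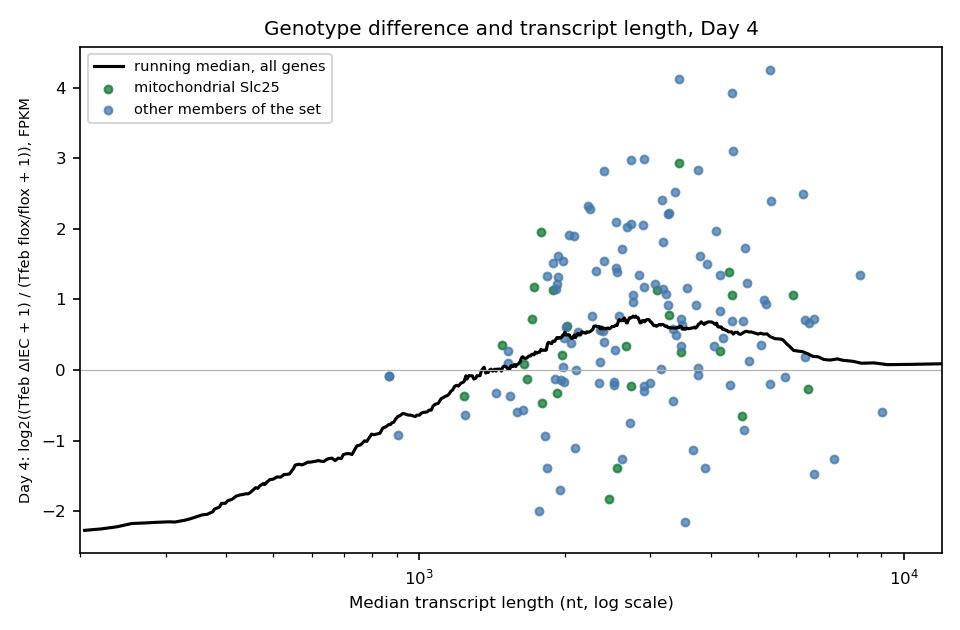
Day 4 log2 difference between genotypes (vertical axis) against the median transcript length of the gene in nt (horizontal axis, log scale) for members at 1 FPKM or more, with mitochondrial Slc25 carriers in green and the others in blue. The black line is the running median over all genes in windows of 501 genes. The line lies below 0 for short genes and above 0 over the lengths of most carriers, and Slc26a2 at 4.25 is the highest point.

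TFEB binds E-box sequences of the CLEAR type, whose core is the palindrome CACGTG, so the promoters of the members were read for that core. RefSeq promoter windows, of 250 bases before to 50 after each start on GRCm38.p6, were matched by symbol for 129 of the 172 members. CACGTG, which reads the same on both strands, was in 22 of them (17.1%), beside 12.1% of 6937 table genes at 1 FPKM or more in any column and 8.09% of all 27025 genes given. The longer TCACGTGA, also its own reverse complement and always containing CACGTG, was in 4 members (3.10%), Slc25a36, Slc35a5, Slc36a1 and Slc37a3, beside 2.25% and 1.12%. Of the members at least 2-fold higher on Day 4, 9 of 44 (20.5%) held CACGTG, as did 1 of 9 lower members (11.1%) and 9 of 60 within 2-fold (15.0%). A match describes the letters in these windows and is neither a shown binding site nor a cause. The following stretches upstream of the start are shown for a lower member, the lysosomal Slc36a1, and for 4 higher members, with CACGTG in capitals, 5′ to 3′ on the strand of the gene. They lie at chr11:55204269-55204339 (plus), chr3:104638424-104638509 (plus), chr6:39377708-39377760 (minus), chr5:33104036-33104121 (plus) and chr6:6217253-6217338 (minus), in the order given, and that of Slc37a3 is part of TCACGTGA, while Slc36a1 holds TCACGTGA elsewhere in its window.
Slc36a1: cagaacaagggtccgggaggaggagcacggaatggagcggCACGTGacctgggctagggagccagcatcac
Slc16a1: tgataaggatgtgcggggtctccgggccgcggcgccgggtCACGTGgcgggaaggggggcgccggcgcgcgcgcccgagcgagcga
Slc37a3: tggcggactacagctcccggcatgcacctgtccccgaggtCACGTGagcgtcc
Slc5a1: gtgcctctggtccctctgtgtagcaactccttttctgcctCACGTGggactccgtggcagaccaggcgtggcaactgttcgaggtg
Slc25a13: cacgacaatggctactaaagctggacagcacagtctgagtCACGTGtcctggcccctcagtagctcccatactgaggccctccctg
The carriers behind these stretches differed in sign, with Day 4 log2 differences of -1.70 for Slc36a1, 3.93 for Slc16a1, 2.32 for Slc37a3, 1.97 for Slc5a1 and 1.14 for Slc25a13. Slc25a13, the mitochondrial aspartate-glutamate carrier, was taken for its stretch after its values were seen.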

How the data were processed

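RNA-seq of colonic epithelial cells was used for 6 groups of 2 animals each, grouped by the genotype and day in the labels. The authors made full-length cDNA libraries, sequenced them as paired ends, used TopHat2 2.0.14 with Bowtie to map them to mm10, and ran Cuffdiff 2.1.1 on the 2 genotypes day by day (versions from the submitters' processing notes). The 3 deposited tables hold FPKM, 1 pooled value per genotype made by the authors from both animals, scaled within each day alone. They also hold the authors' log2 fold changes, test statistics, p-values and q-values, which were not used. Levels are compared across days only side by side, and no count or depth is given.

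The members, lists and rules were chosen with earlier results of these data known. Log2 differences used a pseudocount of 1 FPKM and genes that reached 1 FPKM in at least 1 genotype of the day, and called means past a fold of 2. No p-value is given, since no value per animal was used. In each substrate group the 4 members with the highest FPKM are named, with the 5 highest and 5 lowest differences of each day and all genes of 3 lists (colonic absorption, small-intestinal absorption, transport genes outside the Slc families). Marker lists covered colonocytes, epithelium, goblet and enteroendocrine cells, small-intestinal enterocytes, immune cells, stroma, and smooth muscle with neurons. Enteroendocrine markers summed to between 70.1 and 296 FPKM and small-intestinal enterocyte markers to between 818 and 1910 FPKM, nearly all of it Fabp2. Transcript lengths are medians over basic transcripts of GENCODE M21 (assembly GRCm38, which is mm10), for genes of at least 200 nt, with a running median over 501 genes. All 172 members matched. A total of 74 members share a locus in the deposited tables with another gene, and for 2, Slc6a9 and Slc25a35, over 20% of exon length overlaps another expressed gene. The values of some genes that fall under the naming rule are not reported here. Exact 0 values are given as listed at 0. The alternatives were other pseudocounts (0.1 and 5 FPKM), no filter or 5 FPKM, division by column sums, centring, subtraction of the length trend, carriers only, 1 row per locus, and a fold of 4. The computation was tested on simulated data with Python 3.11.15, numpy 2.4.6, pandas 2.3.3 and scipy 1.17.1.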

Additional observations from a re-analysis of the deposited data

Results flagged for a closer look

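Slc39a14 and Slc39a3, zinc carriers of the ZIP family, stood out because they were more than 2-fold higher in Tfeb ΔIEC on Day 0 and more than 2-fold lower on the later days. For Slc39a14 the log2 differences of Days 0, 4 and 11 were 1.63, -1.10 and -1.48, so that Day 4 minus Day 0 was -2.73 and Day 11 minus Day 0 was -3.11. For Slc39a3 they were 1.55, -1.13 and -1.08, with differences between the days of -2.69 and -2.64. After division by the column sums the later values were -0.61 and -0.94 for Slc39a14 and -0.44 and -0.38 for Slc39a3, all within 2-fold, and the Day 0 values were 1.64 and 1.56. The change between days was not tested, since each value is 1 pooled FPKM, and the near-identical tables of Days 4 and 11 count as 1 observation.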

How the results depend on the processing

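No named gene past the fold took the other sign under any alternative, but calls were lost. Of named genes past the fold on Day 0, 6 of 17 higher and 4 of 7 lower stayed past it with a pseudocount of 5, and 9 of 17 higher after length subtraction. On Day 4, 24 of 31 higher stayed past it with a pseudocount of 5 and 24 after length subtraction, and of 11 lower 2 did so with a pseudocount of 5 and 6 with column sums. Of 189 group medians under alternatives, 12 took the other sign, all from medians within the fold, and only 1 median was past it. On Day 0 the 29 higher members became 49 with a pseudocount of 0.1, 7 with 5, 19 at 5 FPKM and 2 at 4-fold. These are 30.8%, 4.40%, 24.4% and 1.26% of members, beside 21.0%, 2.51%, 11.4% and 2.09% of all genes, so at 4-fold no excess remained. The 5 lower members became 14, 2 and 1 with pseudocounts of 0.1 and 5 and at 4-fold, and 17 after length subtraction, or 8.81%, 1.26%, 0.629% and 10.7% beside 20.5%, 6.24%, 3.35% and 11.3% of all genes. The median of 0.37 became 0.18 with a pseudocount of 5 and 0.10 after length subtraction. On Day 4 the 57 higher members became 24 with a pseudocount of 5, 33 at 5 FPKM, 33 after length subtraction and 21 at 4-fold (16.1%, 51.6%, 22.1% and 14.1% beside 9.33%, 27.4%, 20.2% and 7.36%), and the 12 lower became 1, 3, 6 (column sums) and 2 (4-fold), or 0.671%, 4.69%, 3.90% and 1.34% beside 13.6%, 34.8%, 15.2% and 10.3%. The median of 0.62 became 0.88 and 0.31 with pseudocounts of 0.1 and 5, 1.12 at 5 FPKM, 1.15 with column sums and 0.16 after length subtraction. On Day 11 the 57 higher members became 24, 33, 31 (length) and 19 (4-fold), or 16.2%, 52.4%, 20.9% and 12.8% beside 9.28%, 27.5%, 20.2% and 7.46%, and the 12 lower became 1, 3, 5 (column sums) and 1 (4-fold), or 0.676%, 4.76%, 3.29% and 0.676% beside 13.6%, 34.6%, 15.0% and 10.2%. The median of 0.61 became 0.30, 1.15, 1.13 (column sums) and 0.13 (length). Division by column sums moved the median of all genes to 0.75 on Day 4 and 0.76 on Day 11, and gave 11 of 76 named genes the other sign on Day 4, all of them within 2-fold. Length subtraction did so for 9 of 78 on Day 0, 5 of 76 on Day 4 and 10 of 76 on Day 11. The cause of these shifts was not tested. Leaving out a replicate was not run, since the tables pool both animals. No paired analysis was possible because the columns carry no replicate. The depth is unknown, so low values such as those of Slc16a11 and Slc36a1 have no known error.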

Other observations

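Carriers of the lysosomal membrane were listed after the values were seen. Of 12 such genes, 7 reached 1 FPKM on Day 4, and 4 of them were at least 2-fold higher in Tfeb ΔIEC, beside 25.6% of all genes, namely the histidine and peptide carrier Slc15a4, the sialic acid carrier Slc17a5, the nucleoside carrier Slc29a3 and Slc46a3. Slc36a1 was lower. Slc15a4 was listed at 1.63, 0.479 and 0.512 FPKM in Tfeb flox/flox and at 6.21, 5.21 and 4.49 FPKM in Tfeb ΔIEC, and Slc17a5 at 2.25, 0.194 and 0.179 FPKM and at 8.09, 5.35 and 5.17 FPKM. Both were higher in Tfeb ΔIEC in each table. Slc46a3 was listed at 0 in Tfeb flox/flox on Day 4 and at 1.64 FPKM in Tfeb ΔIEC. The heme carrier Slc48a1 was within 2-fold at 2.45 and 3.20 FPKM, and the arginine sensor Slc38a9 stayed under 1 FPKM.

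The mitochondrial Slc25 carriers and the genes of oxidative phosphorylation, also compared after the values were seen, lay apart. On Day 4 the median log2 difference was 0.30 over 26 Slc25 members and -2.41 over 77 oxidative phosphorylation genes. The latter were taken by a symbol pattern, which is not a curated list of subunits. Of the 77, 59 were at least 2-fold lower in Tfeb ΔIEC, the pseudogene Atp5k-ps2 among them, and 6 were higher, beside 26.1% and 25.6% of all genes. On Day 0 the medians were 0.02 and -1.23. The median transcript length on Day 4 was 2508 nt for the Slc25 members and 732 nt for the oxidative phosphorylation genes, and the part of length in this contrast was not tested.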
